A study of Mus musculus with 10 samples.

Results

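Glucocorticoid induced genes of mouse hepatocytes were followed over the day and over the liver lobule. The 9 genes were taken by symbol, written in lower case in the files: nr3c1, fkbp5, tsc22d3, zfp36, dusp1, sgk1, errfi1, ddit4 and klf9 (Nr3c1, Fkbp5 and so on below). All 9 were found among the 14812 gene entries, and all 9 passed the filter on low values, a mean over libraries of 3 CPM, where CPM is the count scaled to a common library total. The choice by symbol used no measured value of these libraries, although earlier results of the same data were known when the list was drawn up. Glucocorticoids are steroid hormones of the adrenal cortex, corticosterone in mice, whose level in blood rises around the start of the active phase, which in mice is the night. They enter the cell and bind the glucocorticoid receptor, which leaves its chaperones, moves to the nucleus and binds glucocorticoid response elements in DNA. In liver the hormone is known for raising genes of glucose output and amino acid breakdown, and it also raises inhibitors of inflammatory, growth factor and mTOR signalling, several of which are among the 9 genes.

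The study sampled single hepatocytes, the main cells of the liver parenchyma, at 4 zeitgeber times (ZT), where ZT0 is by convention lights on. There were 3 libraries at ZT0 (A, B, C), 2 at ZT6 (A, B), 3 at ZT12 (A, B, C) and 2 at ZT18 (A, B), with 18378 cells in all. Every library came from C57BL/6 male mice aged 3 months, fed regular chow ad libitum, anaesthetised with ketamine and xylazine, and their hepatocytes were taken by collagenase perfusion and a Percoll gradient into 10x Chromium 3' kit v2 libraries. The groups therefore shared genotype, sex, feeding and anaesthesia and differed in time and, in part, in a library label described below, and how many mice gave a library is not stated in the labels, so p-values measure the spread between libraries, which may be technical. Anaesthesia, perfusion and digestion were common to all groups, so no library shows the level of these genes in undisturbed tissue.

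The libraries held 710 to 2860 cells and 1454623 to 7144803 unique molecular identifiers (UMIs, counts of single tagged RNA molecules), with 1588 to 2662 UMIs in the median cell. ZT12A (710 cells) and ZT12C (1139 cells) were the shallowest. Alb, a defining transcript of hepatocytes, was found in 99.7% of ZT12A cells and in 100% of cells in the 9 other libraries. Ttr, another, was in 70.7% of ZT12A cells, 79.3% of ZT18A cells and 92.2% or more elsewhere. Apoa1 was in 54.6% of ZT12A cells, 63.4% of ZT18A cells, 75.2% of ZT18B cells and 93.8% or more elsewhere. ZT12A had the highest median share of mitochondrial UMIs, 24.7%, followed by ZT18A at 21.6%. Results are given without ZT12A where that changes a call. By contrast, the macrophage genes C1qa, C1qb, C1qc, Clec4f and Csf1r and the lymphocyte genes Cd3d, Cd3e, Cd79a, Nkg7 and Ccl5 were at 0 in all 10 libraries. Summed levels of the 8 macrophage markers were 0 to 10.6 CPM, of the 7 lymphocyte markers 0 to 0.609 CPM, of the 6 endothelial markers 3.44 to 16.9 CPM and of the 6 stellate cell markers 3.44 to 12.7 CPM. Neutrophil markers summed to 0 to 7.70 CPM, erythroid ones to 71.5 to 107 CPM, most of it Alas2 (in up to 23.3% of cells), and cholangiocyte ones to 0.773 to 32.5 CPM, most of it Sox9. The cholangiocyte sum averaged 22.5 CPM over the ZT0 libraries and 4.53 over those of ZT12, with 2.52 for ZT6 and 14.4 for ZT18. Without the cells that held 2 or more UMIs of these markers, 1.81% to 9.03% of a library, the same members were called in each test of time and of zone. Of these markers Alas2 had 3478 UMIs in all, Sox9 565 and every other 190 or fewer. How many of the cells left out were of other types was thus not tested. The libraries also differ in the number that ends their 10x barcode label, called the index number here: 3 for ZT0A and ZT12A, 5 for ZT0C and ZT12C, 7 for ZT0B, ZT6A, ZT6B and ZT12B, and 4 for both ZT18 libraries. Time and index number cannot be told apart at ZT18. Within ZT0 and ZT12, index number 7 was compared with 3 and 5 after the values had been seen. By edgeR 4 of the 9 genes had an unadjusted p under 0.05, as did 1025 of 8886 genes. None of the 9 passed over all genes, and results are given with the index number.

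RefSeq promoter windows on GRCm38.p6 were available for 8 of the 9 genes, with 16 annotated starts, and show which of them carry letters of a known response element. The stretches below are 1 for each of the 5 genes whose windows hold such letters. For Sgk1 the window with the full palindrome is shown, and its other 2 windows with an arm alone are not. Each is the longest part of the 250 bases before a start that overlaps no GENCODE M21 exon, printed 5′ to 3′ on the strand of the gene: Sgk1 chr10:21993640-21993889 (+), Tsc22d3 chrX:140600660-140600772 (-), Fkbp5 chr17:28486150-28486399 (-), Dusp1 chr17:26508520-26508722 (-) and Errfi1 chr4:150854950-150855069 (+). Capitals mark the palindromic glucocorticoid response element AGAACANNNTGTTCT, its right arm TGTTCT, the E-box CACGTG bound by clock factors, and the cAMP response element TGACGTCA, each searched on both strands.
Sgk1: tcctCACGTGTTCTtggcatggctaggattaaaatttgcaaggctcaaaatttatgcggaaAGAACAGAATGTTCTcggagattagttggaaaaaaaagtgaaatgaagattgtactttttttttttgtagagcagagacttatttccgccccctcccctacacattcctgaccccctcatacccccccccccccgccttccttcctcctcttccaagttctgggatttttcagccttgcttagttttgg
Tsc22d3: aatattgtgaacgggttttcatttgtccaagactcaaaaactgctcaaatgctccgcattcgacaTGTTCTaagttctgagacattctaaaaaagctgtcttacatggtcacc
Fkbp5: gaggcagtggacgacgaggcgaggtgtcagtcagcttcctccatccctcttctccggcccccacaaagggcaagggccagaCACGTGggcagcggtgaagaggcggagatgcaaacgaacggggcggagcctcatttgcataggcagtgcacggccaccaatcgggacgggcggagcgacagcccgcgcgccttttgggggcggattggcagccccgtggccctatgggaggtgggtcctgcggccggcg
Dusp1: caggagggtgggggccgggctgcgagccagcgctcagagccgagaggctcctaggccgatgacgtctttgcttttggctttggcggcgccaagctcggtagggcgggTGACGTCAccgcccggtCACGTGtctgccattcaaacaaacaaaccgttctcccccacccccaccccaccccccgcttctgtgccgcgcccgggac
Errfi1: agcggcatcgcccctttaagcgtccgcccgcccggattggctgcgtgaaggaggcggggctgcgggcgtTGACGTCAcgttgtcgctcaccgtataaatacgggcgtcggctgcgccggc
The full palindrome lay in 1 of the 16 member windows, that of Sgk1, where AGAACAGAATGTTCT ran from 189 to 175 bases before the start. It was in 3 of 32851 RefSeq windows of the same length (0.009%). The arm TGTTCT, which the palindrome contains, was in 4 of the 16 member windows (3 of Sgk1, 1 of Tsc22d3) and in 16.085% of all windows. In the Sgk1 stretch another such arm overlaps the E-box near the left end. The E-box was in 3 member windows (Dusp1, Fkbp5, Sgk1) and in 6.021% of all, and the cAMP element in 2 (Dusp1, Errfi1) and in 1.546%. A match describes the letters and is not evidence of binding, and these windows are short, so elements farther away are not covered. The windows of Zfp36 (gene at chr7:28376784-28379228), Ddit4 (chr10:59949675-59951770) and Klf9 (chr19:23141226-23168129), all protein-coding genes, held none of these motifs.

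Levels are given in CPM of each library's total, in the order of the letters. A UMI is counted once per molecule, so CPM is not scaled by transcript length. Log2 differences come from edgeR's quasi-likelihood test after TMM scaling of the libraries, with the standard error (SE), and adjusted p-values from that test are Benjamini-Hochberg adjusted over all 8908 tested genes, with a threshold of 0.05. Of the 9 genes, Errfi1 was the highest at 856 ± 318 CPM (SD, n = 10 libraries) and Sgk1 the lowest at 14.5 ± 10.0 CPM. Ddit4 and Tsc22d3 varied most between libraries, 15.8-fold and 14.1-fold from the lowest to the highest, and Nr3c1 and Zfp36 least, 1.93-fold and 1.99-fold.

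**Figure D1:**
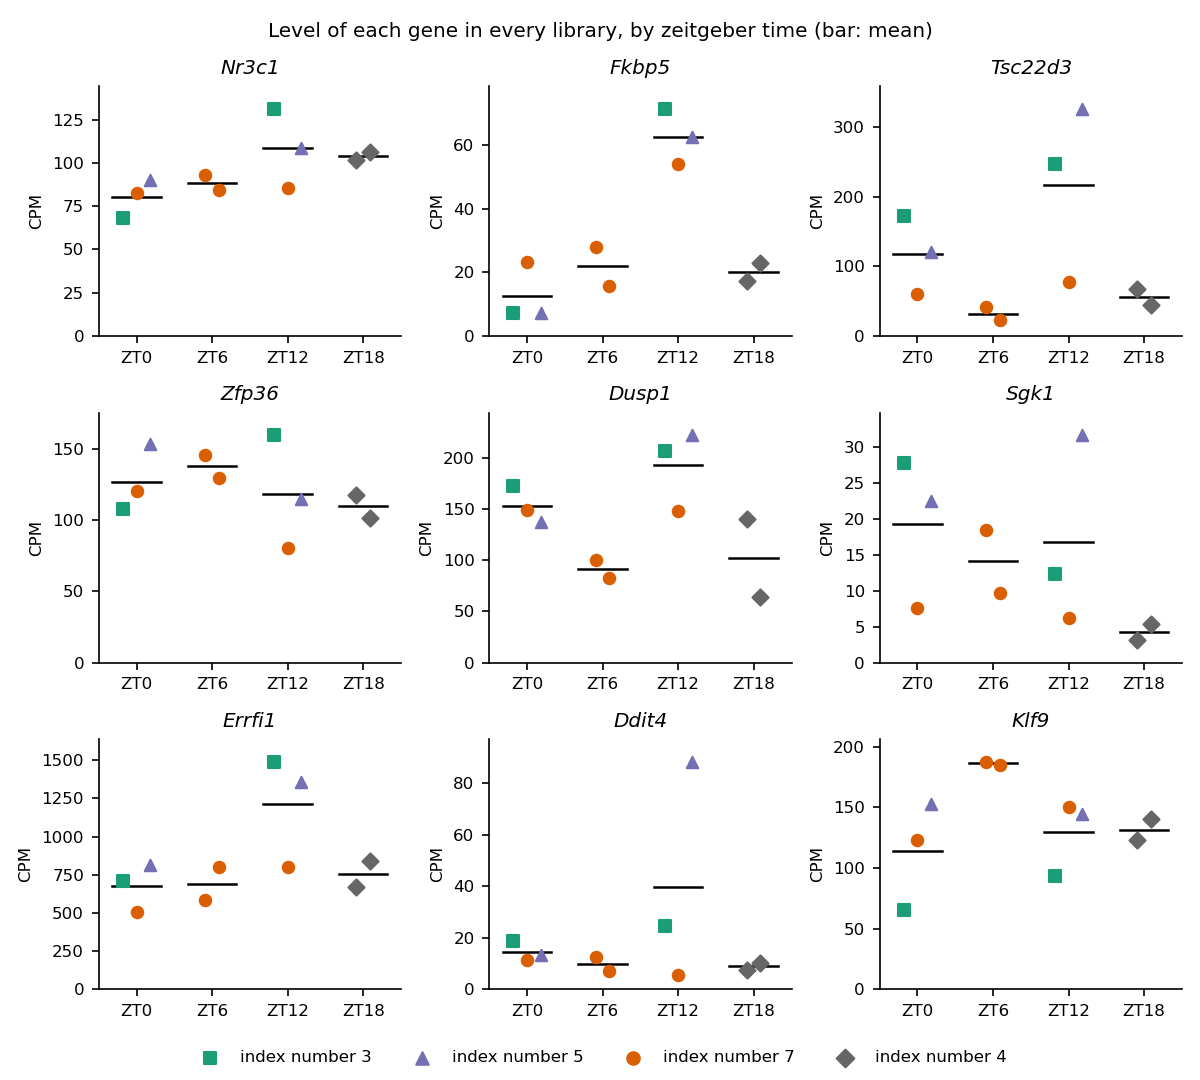
Level of the 9 genes in each library (points, CPM on the vertical axis) by zeitgeber time, with the mean of each time as a bar and the index number as the symbol. Fkbp5 sits at 54.0 to 71.5 CPM in the 3 ZT12 libraries and at or below 28.04 CPM in the other 7, while the index 7 library is the lowest of its time for Tsc22d3, Sgk1, Ddit4 and Errfi1 at both ZT0 and ZT12.

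Nr3c1 encodes the glucocorticoid receptor itself. It stood at 67.9, 82.3 and 89.98 CPM at ZT0, at 92.8 and 84.2 at ZT6, at 131, 85.4 and 108 at ZT12, and at 102 and 106 at ZT18. Both ZT18 libraries lay above both ZT6 libraries, and all other neighbouring times in the order of means (ZT12, ZT18, ZT6, ZT0) overlapped. No test of time called it: the 24-h wave had a log2 amplitude of 0.21 (adjusted p = 0.432), and ZT12 exceeded ZT0 by 0.29 ± 0.19 (adjusted p = 0.502).

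Fkbp5 encodes an immunophilin co-chaperone that lowers the hormone affinity of the receptor and is itself induced through it. It was counted at 7.33, 23.2 and 7.09 CPM at ZT0, at 28.04 and 15.8 at ZT6, at 71.5, 54.0 and 62.8 at ZT12, and at 17.3 and 22.9 at ZT18. The 3 ZT12 libraries lay above all 7 others without overlap, and the other 3 times overlapped one another. Fkbp5 was the only member that edgeR's quasi-likelihood test called rhythmic over 24 h, 1 of 9 against 5.14% of all tested genes, with a log2 amplitude of 1.09, a peak at ZT11.9 and a peak-to-trough fold of 4.51 (adjusted p = 0.0142). It was also the only member called between ZT12 and ZT0, higher at ZT12 by 2.15 ± 0.38 on the log2 scale (adjusted p = 0.00617), where 3.44% of genes were called and 1.74% were higher (306 genes in all, and 504 with the replicate letter, which pairs ZT0 with ZT12, as a block). These 10 libraries held 41 to 386 Fkbp5 UMIs each. The rhythm and the ZT12 difference both passed the threshold when any single library was left out, at adjusted p up to 0.0486 and 0.0311, both without ZT12A.

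Within the index numbers the rise of Fkbp5 was of unequal size. ZT12 exceeded ZT0 2.33-fold between the index 7 libraries, 9.75-fold between those with index number 3 and 8.85-fold between those with 5. With the index number as a block over the ZT0, ZT6 and ZT12 libraries the difference was 2.26 ± 0.35 (adjusted p = 0.00396). The rise was thus present in all 3 comparisons of libraries with the same number.

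Tsc22d3 encodes GILZ, a leucine zipper protein that binds inflammatory transcription factors and is among the best known direct targets of the receptor. Its level was 173, 60.9 and 121 CPM at ZT0, 41.0 and 23.2 at ZT6, 247, 77.5 and 327 at ZT12, and 67.9 and 45.3 at ZT18. In 5 of the 6 ZT0 and ZT12 libraries it lay above all 4 libraries of ZT6 and ZT18, the exception being ZT0B, and both ZT18 libraries lay above both ZT6 libraries. The means were thus higher at ZT0, 118 ± 56.2 CPM, and at ZT12, 217 ± 127 CPM (SD, n = 3 each). They were lower at the times between, 32.1 ± 12.6 CPM at ZT6 and 56.6 ± 16.004 CPM at ZT18 (SD, n = 2 each). A 24-h wave cannot give this pattern of alternate highs and lows, which the contrast of the mean of ZT0 and ZT12 against that of ZT6 and ZT18, called the departure here, measures.

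The departure of Tsc22d3 was 1.88 ± 0.38 on the log2 scale, a 3.67-fold difference (edgeR adjusted p = 0.0476), and it was the only member called. Over all genes 0.505% were called in the departure and 0.0561% were higher at ZT0 and ZT12. The 24-h rhythm test did not call it (log2 amplitude 0.53, adjusted p = 0.727). The call was just inside the threshold and was lost without ZT0A (1.63, adjusted p = 0.0605), ZT12A (1.80, adjusted p = 0.139), ZT12C (1.69, adjusted p = 0.101), ZT18A (2.03, adjusted p = 0.148), ZT18B (1.75, adjusted p = 0.320), ZT6A (2.09, adjusted p = 0.185) or ZT6B (1.73, adjusted p = 0.293). It was lost as well without the Mup, haemoglobin and pseudogene entries (1.87, adjusted p = 0.0694). The sign was positive in all of these fits.

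At both ZT0 and ZT12 the level of Tsc22d3 was lowest in the index 7 library. At ZT0 the libraries A and C exceeded B, the index 7 library, 2.84-fold and 1.99-fold, and at ZT12 3.18-fold and 4.21-fold. Both ZT6 libraries, where it was lowest, carry index number 7. Among the libraries of that number alone, ZT0B was 1.90-fold and ZT12B 2.41-fold above the ZT6 mean. Over the 8 libraries of ZT0, ZT6 and ZT12, the mean of ZT0 and ZT12 exceeded ZT6 by 2.32 ± 0.53 (edgeR adjusted p = 0.162), and by 1.13 ± 0.30 with the index number as a block (adjusted p = 0.268), where 0.157% and 0.0786% of genes were called. The difference was thus smaller between libraries that share a number and had the same sign.

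**Figure D2:**
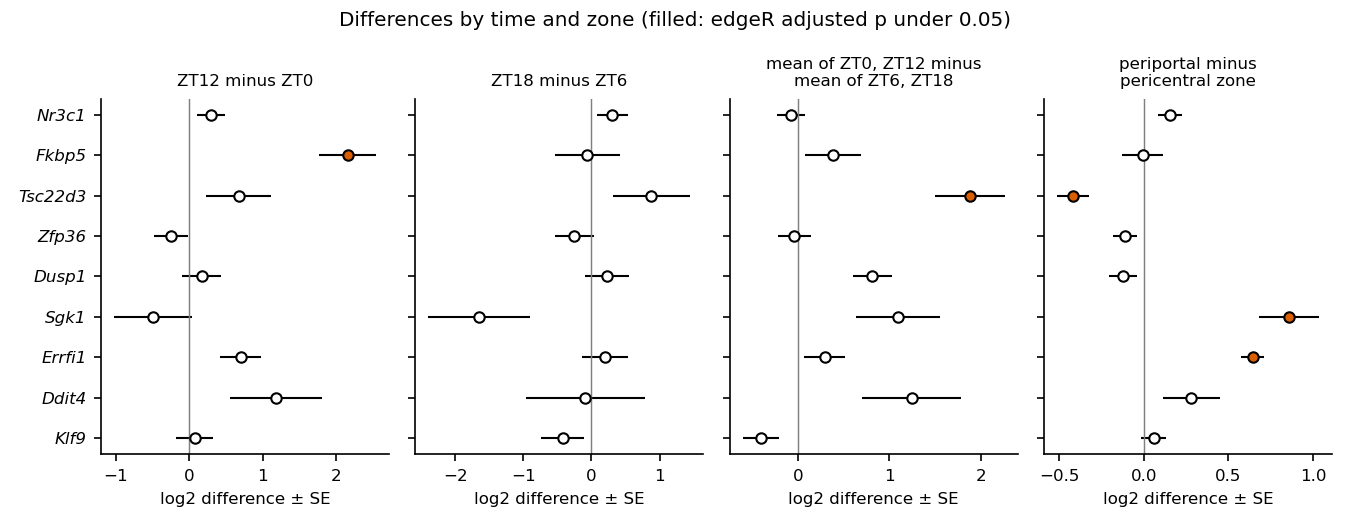
Log2 difference ± SE of each gene (rows) for ZT12 minus ZT0, ZT18 minus ZT6, the departure and the periportal minus the pericentral zone, with filled points for edgeR adjusted p under 0.05. The filled points are Fkbp5 in the ZT12 panel, Tsc22d3 in the departure panel, and Tsc22d3 (-0.42), Sgk1 (0.86) and Errfi1 (0.64) in the zone panel.

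Zfp36 encodes tristetraprolin, which binds AU-rich elements and speeds the decay of inflammatory mRNAs. Its level was 108, 120.1 and 153 CPM at ZT0, 145 and 129.8 at ZT6, 159 at ZT12A, 80.2 at ZT12B and 115 at ZT12C, and 118 and 102 at ZT18. All neighbouring times overlapped, and the widest gap lay within ZT12. It passed no test of time, and its departure was -0.04 ± 0.18 (edgeR adjusted p = 0.954).

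Dusp1 encodes a phosphatase that switches off MAP kinases. It was counted at 172, 149 and 137 CPM at ZT0, at 99.8 and 82.3 at ZT6, at 207, 148 and 222 at ZT12, and at 140.2 and 63.6 at ZT18. As for Tsc22d3, 5 of the 6 ZT0 and ZT12 libraries lay above all 4 of ZT6 and ZT18, and the exception was ZT0C, just under ZT18A. Its departure was 0.81 ± 0.21 with an unadjusted p of 0.00198, and it missed the threshold in edgeR's test over all genes (adjusted p = 0.149). The value changed by less than its SE with the index number as a block: the mean of ZT0 and ZT12 exceeded ZT6 by 0.93 ± 0.23 without the block (edgeR adjusted p = 0.203) and by 0.76 ± 0.20 with it (adjusted p = 0.268). Within index number 7, ZT0B was 1.64-fold and ZT12B 1.63-fold above the ZT6 mean. The departure passed the threshold in 4 of 20 alternative fits and stayed uncalled in the other 16, with values down to 0.59. It passed by edgeR with the replicate letter, which pairs ZT0 with ZT12 alone, as a block (adjusted p = 0.0336). It also passed by DESeq2 (adjusted p = 0.030) and by edgeR without a filter on low counts (adjusted p = 0.0269). The remaining fit in which it passed was that without ZT18A, the higher ZT18 library, with a value of 1.14. That fit left a single library at ZT18, and Tsc22d3 was not called in it.

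Sgk1 encodes a serum and glucocorticoid regulated kinase that acts on ion channels and carriers. Its levels were low, 27.8, 7.58 and 22.5 CPM at ZT0, 18.5 and 9.66 at ZT6, 12.4, 6.16 and 31.6 at ZT12, and 3.14 and 5.39 at ZT18. Both ZT18 libraries lay below all 8 others, on 10 and 20 UMIs, and the other times overlapped. ZT18 minus ZT6 was -1.65 ± 0.75 on the log2 scale with an unadjusted p of 0.0449, which did not pass (edgeR adjusted p = 0.241). No member passed between ZT18 and ZT6, 0 of 9 against 3.79% of all genes, by edgeR or by DESeq2. Sgk1 was the only member with an unadjusted p under 0.05 by edgeR, among 1744 such genes of 8908. Its departure of 1.09 ± 0.46 (adjusted p = 0.369) rested on ZT18: against ZT6 alone, the mean of ZT0 and ZT12 differed by 0.28 ± 0.54, and by -1.05 ± 0.38 with the index number as a block (adjusted p = 0.461).

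Errfi1 encodes an inhibitor of the EGF receptor and its relatives. It was by far the most abundant member, at 707, 507 and 812 CPM at ZT0, 583 and 798 at ZT6, 1488, 799 and 1356 at ZT12, and 669.6 and 842 at ZT18. ZT12A and ZT12C were the highest of all 10 libraries, while ZT12B overlapped the other times. ZT12 exceeded ZT0 by 0.70 ± 0.28 with an unadjusted p of 0.026 (edgeR adjusted p = 0.239), and by 0.68 ± 0.18 with the index number as a block (adjusted p = 0.0501). The ratio of ZT12 to ZT0 was 2.11 for index number 3, 1.67 for 5 and 1.57 for 7.

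Ddit4 encodes REDD1, an inhibitor of the growth kinase mTORC1. Its levels were 18.7, 11.3 and 13.2 CPM at ZT0, 12.6 and 6.95 at ZT6, 24.7, 5.60 and 88.4 at ZT12, and 7.54 and 10.2 at ZT18. ZT12 held both the lowest (ZT12B) and the highest (ZT12C) of all 10 libraries, 15.8-fold apart, and all neighbouring times overlapped. The high ZT12C value came from 176 UMIs. ZT12 differed from ZT0 by 1.18 ± 0.63 (edgeR adjusted p = 0.393), by 1.77 without ZT12B (adjusted p = 0.0405) and by -0.33 without ZT12C, so that the value rests on which ZT12 library is taken.

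Klf9 encodes a zinc finger transcription factor that represses proliferation genes. It was counted at 65.6, 123 and 153 CPM at ZT0, at 187 and 185 at ZT6, at 93.5, 150.3 and 144 at ZT12, and at 123 and 140.1 at ZT18. Both ZT6 libraries lay above all 8 others, where those of Tsc22d3 were the lowest, with a mean of 186 ± 1.60 CPM (SD, n = 2) against 114 ± 44.2 at ZT0 (SD, n = 3). Its departure was -0.40 ± 0.20 (edgeR adjusted p = 0.445), so it did not pass the test.

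Over the 9 genes, the median departure was 0.38 against 0.03 over all tested genes, and 4 members (Tsc22d3, Dusp1, Sgk1 and Ddit4) had an unadjusted p under 0.05, all higher at ZT0 and ZT12, as did 1068 of all 8908 genes in either direction. The median for ZT12 minus ZT0 was 0.29 against a median of all genes of 0.00, and for ZT18 minus ZT6 it was -0.06 against -0.01. Of the 9 genes, Fkbp5 passed the tests of the 24-h rhythm and of ZT12 against ZT0, Tsc22d3 passed that of the departure, and the other 7 passed no test of time by edgeR. Whether the members differ from one another in their course was not tested. The departure of Fkbp5 was 0.38 ± 0.30 (edgeR adjusted p = 0.638). The sign of the departure of Fkbp5 and Zfp36 depended on single libraries, and those of the other 7 members did not.

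The index number itself was then compared within ZT0 and ZT12, 7 against 3 and 5, with time as a term, after the values had been seen. No member passed edgeR's test, 0 of 9 against 0.0563% of 8886 genes, and 4 had an unadjusted p under 0.05, as did 1025 of all genes. All 4 were lower in the index 7 libraries: Sgk1 by a log2 difference of -1.75 ± 0.34 (adjusted p = 0.200), Tsc22d3 by -1.54 ± 0.28 (adjusted p = 0.163), Ddit4 by -1.69 ± 0.66 and Errfi1 by -0.66 ± 0.23. Fkbp5 had the opposite sign, 0.74 ± 0.38 (adjusted p = 0.477). The median over the 9 genes was -0.39 against -0.01 over all genes. What the index number stands for beyond the label, such as a day, a mouse or a chip, is not given in the sources used here.

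**Figure D3:**
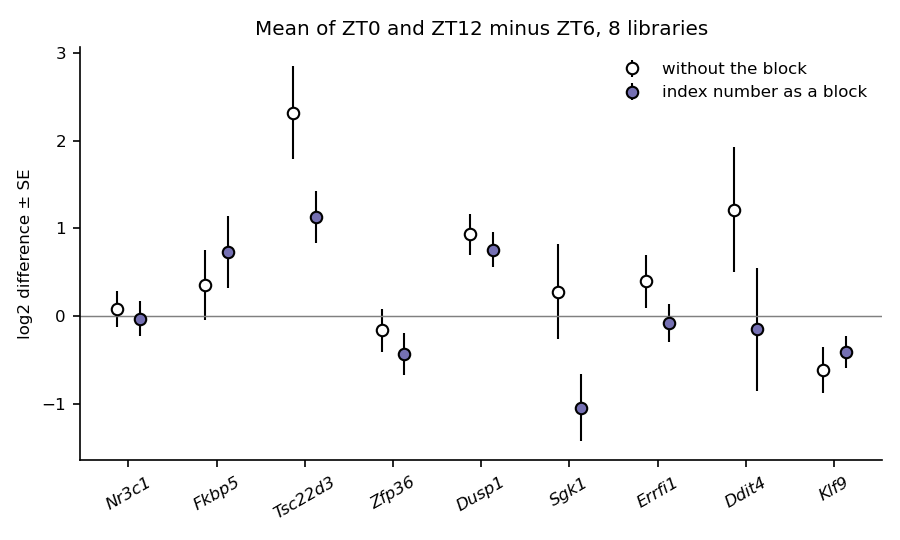
Mean of ZT0 and ZT12 minus ZT6 over 8 libraries as a log2 difference ± SE (vertical axis) for each gene, without a block (open) and with the index number as a block (filled). Tsc22d3 goes from 2.32 to 1.13 and Ddit4 from 1.21 to -0.15, Sgk1 turns from 0.28 to -1.05, and Dusp1 stays near its value, 0.93 and 0.76.

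Position in the lobule was read from the order of cells of each library along a score of 8 periportal and 8 pericentral landmark genes, none of which is a member. Across the cells of a library, the score from the odd landmarks and that from the even ones had an r of 0.683 to 0.847. All 9 zonated genes kept out of the score, such as Glul near the central vein and Sds near the portal vein, were called in their known direction. The cells were split into 3 equal parts, and both outer parts, called the pericentral and periportal zones, were compared over the 10 libraries with the library as a block. Of the 9 members 3 passed edgeR's quasi-likelihood test, against 24.8% of 8909 genes (12.2% higher and 12.6% lower in the periportal zone).

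Errfi1 was higher in the periportal zone in 10 of 10 libraries. Its pericentral and periportal levels were 485 and 903 CPM in ZT0A, 363 and 644 in ZT0B, 721 and 966 in ZT0C, 501 and 706 in ZT6A, and 664 and 938 in ZT6B. They were 1361 and 1599 in ZT12A, 686 and 859 in ZT12B, 1169 and 1501 in ZT12C, 417 and 812 in ZT18A, and 706 and 931 in ZT18B. The zones overlap across libraries, also among libraries of ZT0 and of ZT12, while within each of the 10 libraries the portal side was higher. The difference was 0.64 ± 0.07 on the log2 scale (edgeR adjusted p = 2.8e-09). Over 8 layers from the central to the portal end, its mean rose from 669 ± 311 CPM in layer 1 to 1004 ± 305 CPM in layer 8 (SD, n = 10).

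Sgk1 was also higher on the portal side, by 0.86 ± 0.18 (edgeR adjusted p = 0.00032), in 8 of 10 libraries. Its means were 11.4 ± 9.73 CPM pericentral and 18.01 ± 12.98 CPM periportal (SD, n = 10). The widest gap was in ZT6A, 5.83 against 29.5 CPM, and the exceptions, ZT12B at 7.18 against 5.96 and ZT12C at 34.5 against 33.2, were near equal. At these low counts the difference in single libraries, such as 2.04 against 5.12 CPM in ZT18A, rests on few UMIs.

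Tsc22d3 had the opposite slope, higher in the pericentral zone in 9 of 10 libraries, with a log2 difference of -0.42 ± 0.09 (edgeR adjusted p = 0.00088). Pericentral and periportal levels were 200.4 and 164 CPM in ZT0A, 74.7 and 39.3 in ZT0B, 182 and 70.7 in ZT0C, 49.0 and 38.6 in ZT6A, and 22.7 and 30.4 in ZT6B, the exception. They were 288 and 240.4 in ZT12A, 90.4 and 71.9 in ZT12B, 399 and 276 in ZT12C, 89.9 and 58.9 in ZT18A, and 49.7 and 47.3 in ZT18B. The exception was the library with the lowest level of all. The index 7 libraries thus had the same slope in 3 of 4 cases, as these levels show.

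The other 6 members did not pass. Nr3c1 was nearest, with 0.16 ± 0.07 toward the portal side (adjusted p = 0.119 by edgeR), and it passed among genes of at least 20 CPM (0.18, adjusted p = 0.0488). Fkbp5 had -0.01 ± 0.12 (adjusted p = 0.98), with 31.0 ± 22.0 CPM pericentral and 30.6 ± 24.6 periportal (SD, n = 10). Zfp36 was lower in the periportal zone in 9 of 10 libraries, with a log2 difference of -0.11 ± 0.07 (adjusted p = 0.301). Library size alone as the scale moved the median of all genes by -0.10 between zones, and on that scale Dusp1 (-0.22, adjusted p = 0.0418) and Zfp36 (-0.21, adjusted p = 0.0273) passed as well.

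**Figure D4:**
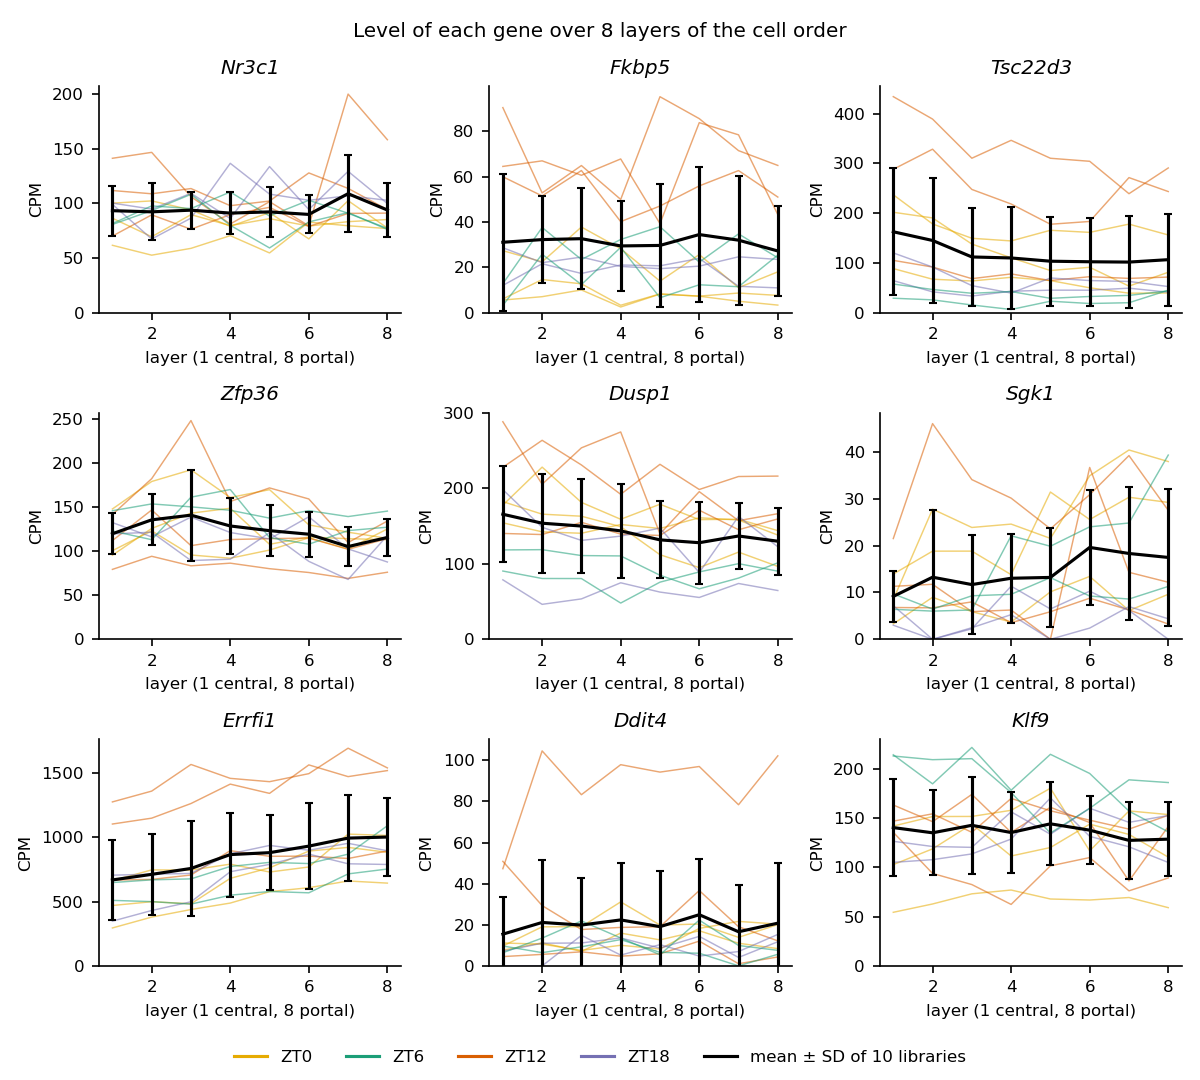
Mean CPM of each gene (vertical axis) over 8 layers of the cell order, 1 at the central and 8 at the portal end, with each library as a thin line coloured by time and the mean ± SD of 10 libraries in black (bars cut at 0). Errfi1 climbs from 669 to 1004 CPM from layer 1 to layer 8. Tsc22d3 falls from 163 CPM in layer 1 to 112 CPM in layer 3 and lies at 102 to 110 CPM in layers 4 to 8. The ZT12 lines are spread widely for Ddit4, Tsc22d3 and Errfi1.

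Whether the course over time differed between the zones was tested in the same sums. No member had a rhythm or a departure that differed between zones by edgeR or by DESeq2, 0 of 9 in each test, against 0.0449% of all genes for the rhythm and 0% for the departure. With an unadjusted p under 0.05 there were 3 members for the rhythm (Errfi1 0.025, Klf9 0.0374, Sgk1 0.0438) among 549 genes, and 0 members for the departure among 452 genes. The zone difference of Tsc22d3 as log2(CPM + 1) came to -0.85 ± 0.53 at ZT0 and -0.37 ± 0.14 at ZT12 (SD, n = 3 each), 0.04 ± 0.53 at ZT6 and -0.34 ± 0.38 at ZT18 (SD, n = 2 each). That of Errfi1 was 0.71 ± 0.26, 0.31 ± 0.07, 0.50 ± 0.00 and 0.68 ± 0.40 at ZT0, ZT12, ZT6 and ZT18. For Tsc22d3 the spread between libraries of a time was as wide as most of these gaps. For Errfi1 the ZT12 libraries, at 0.23 to 0.36, lay below all others, at 0.40 or more. Its zone-dependent rhythm did not pass over all genes (edgeR adjusted p = 0.717).

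Single cells were compared after thinning each to 1500 UMIs, which left out shallower cells, 1402 of them at ZT0, 1356 at ZT6, 1073 of ZT12 and 1108 of ZT18. The share of cells with a Tsc22d3 UMI was 21.8%, 8.33% and 15.7% at ZT0, 5.91% and 3.13% at ZT6, 31.3%, 11.9% and 37.5% at ZT12, and 9.48% and 7.05% at ZT18. The shares followed the order of the CPM. Without thinning they ran from 4.10% in ZT6B to 42.4% in ZT12C. For Fkbp5 the thinned shares were 10.2%, 7.33% and 9.98% at ZT12 and 0.675% to 4.02% in the other libraries (2.02% to 13.9% unthinned over all), and for Errfi1 they were 51.6% to 87.1% (63.1% to 91.3% unthinned). No cell type that lacks these genes was present, so the share that free RNA gives was not measured.

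The counts of most members were spread over cells much as those of other genes. The variance of thinned UMIs per cell divided by their mean, which is 1 for counts that vary by sampling alone, was 0.952 to 1.14 for Tsc22d3 and 0.960 to 1.02 for Fkbp5. For comparison, the 10th and 90th percentiles over all genes with a thinned mean of 0.01 to 1.5 were 0.972 and 1.07 in ZT0A and 0.958 and 1.11 in ZT12C. Errfi1 lay above the 90th percentile in 10 of 10 libraries, at 1.12 to 1.22, Tsc22d3 in 1 of 10 and Fkbp5 in 0 of 10. The thinned mean of Errfi1 was above that range in ZT12A (2.28) and ZT12C (2.07), and that of Fkbp5 was below it in ZT0C (0.00675). Genes were not matched by mean, so whether the higher ratio of Errfi1 goes with its higher level was not tested. In ZT12C, where Tsc22d3 was highest, no cell held more than 7 of its UMIs, and the cells with the most, 1% of all, held 5.99% of them. For pairs of members, cells with a UMI of the first gene more often held a UMI of the second in 1 to 8 of the 10 libraries. For no pair was this so in all 10 libraries. Some first genes were in very few cells, such as Sgk1 in 0.587% of 1023 cells of ZT18A and Fkbp5 in 0.675% of 1482 cells of ZT0C. For pairs led by such genes these counts cannot tell whether the genes occur together.

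**Figure D5:**
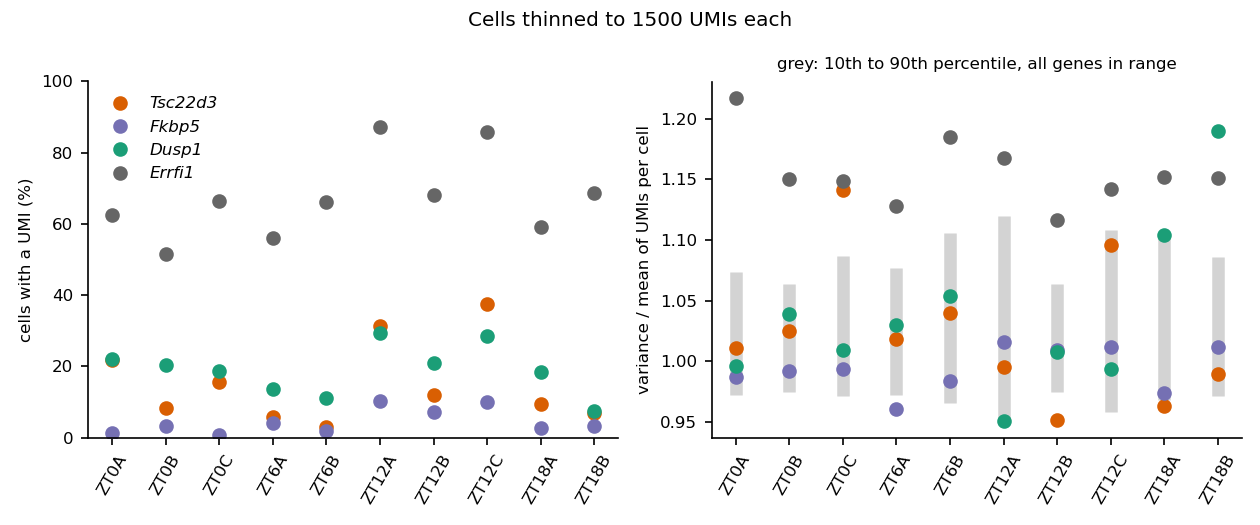
Percent of cells with a UMI (left) and variance over mean of UMIs per cell (right) in each library after thinning to 1500 UMIs, with grey bars for the 10th to 90th percentile of all genes with a mean in range. Tsc22d3 spans 3.13% to 37.5% of cells with ratios of 0.952 to 1.14, and Errfi1 has the highest ratio of the 4 genes plotted, 1.12 to 1.22, in all libraries except ZT18B.

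Other genes of the pathway were taken from lists that name the receptor's partners, further liver targets, immediate early genes and the clock, all drawn up with earlier results of these data known. Of 12 partners of the receptor, all tested, 2 had a rhythm, the chaperone Hsp90aa1 (peak ZT19.8, log2 amplitude 1.41, edgeR adjusted p = 5.5e-05) and the co-chaperone Fkbp4 (peak ZT20.2, log2 amplitude 0.63, adjusted p = 0.0137). Over all tested genes 5.14% had a rhythm. Hsp90aa1 and Fkbp4 were also higher at ZT18 than at ZT6. The other 10, Nr3c1 among them, had no rhythm by this test. In the departure 0 of the 12 were called by edgeR, DESeq2 or limma-voom, against 0.505% of all tested genes by edgeR. Their median was -0.09 against 0.03 over all genes. By edgeR 1 of the 12 had an unadjusted p under 0.05, as did 1068 of all 8908 genes. That 1 was Hspa8, another chaperone, at -0.36 ± 0.16 (adjusted p = 0.404), and Hsp90ab1 had -0.30 ± 0.20 (adjusted p = 0.566).

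Of 31 further targets 24 were tested, and 7 had a 24-h rhythm, against 5.14% of all tested genes: Cdkn1a, Lpin1, Mt1, Mt2, Pck1, Per1 and Zbtb16. Lpin1, a phosphatidate phosphatase, was at 43.9 ± 4.94 CPM at ZT0 and 637 ± 205 CPM at ZT12 (SD, n = 3 each), with a peak at ZT11.6 (edgeR adjusted p = 3.2e-04), near that of Fkbp5. Per1, a clock gene with a glucocorticoid response element, was at 3.40 ± 1.57 and 22.2 ± 5.73 CPM at those times and peaked at ZT10.3 (adjusted p = 0.00183). Between ZT12 and ZT0, 7 were higher and 1 was lower, where 3.44% of all tested genes were called in either direction. The sum over the list was 3632 to 5198 CPM at ZT0 and 6518 to 10279 CPM at ZT12.

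In the departure 1 of these 24 was called by edgeR, against 0.505% of all tested genes. DESeq2, which called 91 genes in all, called 5 of them, and limma-voom called 2. By edgeR 13 of the 24 had an unadjusted p under 0.05, as did 1068 of all 8908 genes. The median was 0.70 against 0.03 over all genes. The gene called by edgeR was Ppp1r3b, which directs a phosphatase to glycogen, at 55.035 ± 11.8 CPM at ZT0 and 51.7 ± 21.9 at ZT12 (SD, n = 3 each) against 10.1 ± 1.76 at ZT6 and 32.5 ± 10.1 at ZT18 (SD, n = 2 each), a departure of 1.52 ± 0.25 (edgeR adjusted p = 0.0132). Mt1, a metal-binding metallothionein, had 1.56 ± 0.33 (adjusted p = 0.0602). Its level was 42.2 ± 18.8 CPM at ZT0 and 411 ± 203 at ZT12 (SD, n = 3 each), 286 ± 22.2 at ZT6 and 6.71 ± 1.94 at ZT18 (SD, n = 2 each). Its ZT0 mean thus lay below its ZT6 mean, unlike that of Ppp1r3b. In the index comparison 0 of the 24 were called, against 0.0563% of 8886 genes. In that edgeR test 7 had an unadjusted p under 0.05, as did 1025 of all genes, with a median of -0.47 against -0.01. Of the 24, 16 were zonated, 12 toward the portal side and 4 toward the central side. Over all tested genes 24.8% were zonated, 12.2% higher and 12.6% lower in the periportal zone.

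Immediate early genes, which are known to respond within minutes to stress and also to tissue digestion, had a median departure opposite in sign to that of Tsc22d3. Their summed level over 23 genes was 439 to 1004 CPM at ZT0, 1019 to 1111 at ZT6, 442 to 447 at ZT12 and 641 to 731 at ZT18. Of the 18 tested, 3 were called in the departure, Btg2, Jun and Nr4a1, all lower at ZT0 and ZT12, against 0.505% of all tested genes. By edgeR 10 had an unadjusted p under 0.05, as did 1068 of all 8908 genes, and the median was -0.73 against 0.03 over all genes. Btg2, an antiproliferative gene, had -1.09 ± 0.17 (edgeR adjusted p = 0.00806), and Jun, a subunit of the AP-1 factor, had -0.82 ± 0.14 (adjusted p = 0.015). None of the 18 had a rhythm by edgeR, against 5.14% of all tested genes, or by limma-voom. DESeq2 called 2 of them, and 792 genes in all. By edgeR 5 had an unadjusted p under 0.05, as did 1816 of all 8908 genes. Ier5 (edgeR adjusted p = 0.0584) and Junb (adjusted p = 0.0909) were nearest. The part of this list's difference in the departure of the 9 genes was not tested. Dusp1 and Zfp36, members that are also known as immediate early genes, had departures of 0.81 and -0.04.

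Of 13 tested clock genes 12 had a rhythm, among them Dbp (peak ZT9.46, log2 amplitude 3.24, edgeR adjusted p = 3.8e-05) and Per3 (peak ZT11.1, log2 amplitude 1.87, adjusted p = 3.8e-05). None was called in the departure by edgeR, DESeq2 or limma-voom, against 0.505% of all tested genes by edgeR. By edgeR 3 had an unadjusted p under 0.05, as did 1068 of all 8908 genes. Dbp (-0.82 ± 0.22, edgeR adjusted p = 0.160) and Nr1d2 (-0.52 ± 0.15, adjusted p = 0.203) were the nearest. The times of day were thus plain in the clock genes of these libraries. Of the 9 glucocorticoid induced genes, 1 passed edgeR's rhythm test, against 5.14% of all tested genes. The median log2 amplitude was 0.36 over the 9 genes, 1.42 over the clock genes and 0.25 over all genes.

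The genes with the most similar levels over the 10 libraries were named for both members called in a test of time, as a description of points that share library, depth and index number. For Tsc22d3 they were Hspa13 (Pearson r = 0.958 on the log2(CPM + 1) scale), Wdr77 (0.953) and Tsfm (0.947). For Fkbp5 they were Coa5 (0.972), Slc16a5 (0.958) and Sfxn2 (0.950).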

How the data were processed

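The deposited values are UMI counts per gene and cell, 1 table per library, read as raw counts because they are whole numbers with unequal totals per cell; the submitters' processing notes name Cell Ranger and the builds mm10 and hg19 without roles, and the settings and the filter on cells are not given in the sources used here. The deposited cells held 1048 UMIs or more, with up to 34.4% of them mitochondrial, so the filters of 1000 UMIs and 35% set for this work removed none. Columns are numbered and carry no barcodes, so barcodes shared by libraries could not be counted, and no doublet caller was run; an alternative dropped the deepest 5% of cells per library.

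Counts were summed per library, the replicate in every test, and tested under R 4.3.3 by edgeR 4.0.16 (glmQLFit, then glmQLFTest) with TMM scaling (factors 0.8876 to 1.143). The 8908 genes whose mean reached 3 CPM were tested; for zones, sums over both outer parts of the cells ordered by 16 landmarks and split into 3 were compared, with library as the block (8909 genes). The 24-h rhythm was a 2-df test of cosine and sine, and the other tests of time were contrasts in a model with 1 mean per time. SE is the log2 difference divided by the square root of F. Library size alone moved the median of all genes by 0.13 for ZT12 minus ZT0. Scripts were tested on simulated data. Alternatives were other scalings, DESeq2 1.42.0, limma-voom (limma 3.58.1), other filters on genes and cells, other zones and leaving out each library; the index number tests were added after the values had been seen.

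The letters of the labels were checked for pairing: deviations from the group means of ZT0 and ZT12 libraries of the same letter correlated with r = 0.239 (A), 0.428 (B) and 0.485 (C), while those involving ZT6 or ZT18 gave -0.043 to 0.110. The letters therefore pair ZT0 with ZT12, as the shared index numbers in the labels also do. For ZT6 and ZT18 they showed no such pairing, so in tests with those times the replicate block by letter does not join matched libraries. The 9 genes and all lists were chosen with earlier results of these data known. Named genes are all 9 members, of each other list those 2 with the lowest p in the departure and in the rhythm, and the 3 genes most like each member called in a test of time; a few called list genes were added by name after their values were seen. Names and promoters were matched by symbol to RefSeq GRCm38.p6. Intervals are not given for single libraries, and UMI numbers cover counting error only.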

Additional observations from a re-analysis of the deposited data

How the results depend on the processing

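The Fkbp5 calls held under every alternative run (20 for the rhythm, 21 for ZT12 against ZT0), and the zone calls of Errfi1, Sgk1 and Tsc22d3 held under all of theirs; the departure of Tsc22d3 did not. Its adjusted p was 0.0528 with DESeq2 size factors and 0.0528 by limma-voom, 0.0703 at 20 CPM and 0.0694 without the Mup, haemoglobin and pseudogene entries, so that 0 members were called in these 4 fits, and 2 members, Dusp1 added, were called by DESeq2 (Dusp1 adjusted p = 0.030), without a filter (0.0269) and with the replicate block by letter (0.0336). The cause of these changes was not tested. Genes called in the rhythm numbered 792 by DESeq2, 283 at 20 CPM, 710 without a filter and 749 with the replicate block; for ZT12 against ZT0 469 without a filter, 504 with the replicate block and 588 with the index block; for ZT18 against ZT6 595, 730 with the replicate block and 199 at 20 CPM. For the departure they numbered 91 by DESeq2, 29 at 20 CPM, 140 without a filter, 84 with the replicate block and 18 without the Mup, haemoglobin and pseudogene entries. With the replicate block no other member call changed. For zone, cells with at least 3000 UMIs gave 1213 genes and library size alone 5 members; for the zone-dependent rhythm, genes numbered 0 by DESeq2 and at 20 CPM, 29 for cells with at least 3000 UMIs, 41 without a filter, 1 with odd-numbered landmarks and 7 with zones cut from 5 equal parts, and for the zone-dependent departure 8 without a filter. Leaving out each library gave 228 to 465 genes for the rhythm, 1 to 2 members for ZT12 against ZT0 (Ddit4 added without ZT12B), 50 to 494 genes for ZT18 against ZT6, 0 to 1 members and 1 to 79 genes for the departure, and 0 to 34 and 0 to 3 genes for the zone-dependent rhythm and departure. Signs of uncalled members turned: Ddit4 for ZT18 minus ZT6 was 0.069 with the replicate block, Fkbp5 between zones 0.014 at 20 CPM, 0.040 for cells with at least 3000 UMIs and 0.027 without cells holding other cell types' markers, and Klf9 between zones -0.049 by library size. Over single libraries left out, ZT12 minus ZT0 ran from -1.34 to 0.011 for Sgk1, -0.33 to 1.77 for Ddit4 and -0.17 to 0.28 for Klf9; ZT18 minus ZT6 from -0.35 to 0.37 for Fkbp5, -0.37 to 0.38 for Ddit4, -0.42 to 0.68 for Dusp1 and -0.055 to 0.50 for Errfi1; the departure from -0.020 to 0.60 for Fkbp5 and -0.19 to 0.058 for Zfp36; and zone from -0.056 to 0.078 for Fkbp5. Depth limits Sgk1, Ddit4 and Fkbp5 most, with 614, 655 and 1174 UMIs in all.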
